A study of Homo sapiens with 12 samples.

Results

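The mRNA levels of 48 genes of the mitotic spindle and of cytokinesis, *ANLN* among them, were examined in 12 RNA sequencing libraries of human cancer cell lines. The members were taken by gene name from the count table, which lists 57187 genes, and all 48 were found and passed the filter on low counts that left 17211 genes. They were grouped by what they are known to do: 10 genes of cytokinesis and the central spindle, 8 spindle motors and assembly factors, 7 mitotic kinases and chromosomal passenger proteins, 5 spindle checkpoint genes, 6 centromere and kinetochore genes, 6 genes of mitotic entry, 3 of anaphase onset and 3 of chromatin and transcription. The cell lines were the breast cancer lines MDA-MB-231 and HCC1954 and the ovarian cancer lines OVCAR8 and SKOV3. Each line gave 3 libraries, from control cells (EV), from cells transfected with *SIVA-WT* and from cells transfected with *SIVA-D160N*. *SIVA* (listed as *SIVA1*) encodes an adaptor protein known from apoptosis signaling, and *SIVA-D160N* carries a single amino acid substitution. The controls are labelled parental and untreated, while the study's supplement calls them both parental and EV. The transfectants carried a linearized vector with a CMV promoter and were selected with hygromycin, and the study describes those of HCC1954, SKOV3 and OVCAR8 as polyclonal. Since a line was sequenced once under each condition, no replicate stands behind a difference inside 1 line, and the replication of a condition comes from its 4 lines (n = 4).

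During mitosis a bipolar spindle of microtubules attaches to the kinetochores of the chromosomes, the spindle checkpoint delays anaphase until every kinetochore is attached, and the central spindle and a contractile ring then divide the cell. Most of these genes are transcribed late in the cell cycle, and their mRNA is low in cells that do not divide, so they are widely used as a proliferation signature of tumors. MuvB complexes with B-MYB and FOXM1 bind a promoter element called the cell cycle genes homology region (CHR), and NF-Y binds CCAAT boxes near it. In bulk RNA, a larger share of cells in mitosis and more mRNA per mitotic cell cannot be told apart.

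The total count per library ran from 35791455 to 45890398, and a count of 0 allows up to 3 counts, which covers counting error only. Levels are given as CPM, the count scaled to a common library size with TMM factors. *SIVA1*, the gene carried by the vectors, was at 0 to 66.3 CPM in EV. It was at 38.2 to 177 CPM with *SIVA-WT* and at 26.5 to 161 CPM with *SIVA-D160N*, above the EV library of the same line in each case. The EV library of HCC1954 had 0 *SIVA1* counts, so the counts of members against EV, the order of the libraries and the interaction are also given without it. *PAX8* was at 61.1 to 243 CPM in the ovarian lines and at no more than 3.43 CPM in the breast lines. *MSLN* was at 85.5 to 109 CPM in OVCAR8 and at no more than 7.55 CPM elsewhere. *MUC16* went the other way, at 66.1 to 115 CPM in HCC1954 and at no more than 1.58 CPM elsewhere. *ERBB2* was highest in HCC1954 and SKOV3. *CDH1*, an epithelial cadherin, was at 695 to 816 CPM in HCC1954 and at no more than 0.493 CPM elsewhere. *EPCAM* was at 206 to 248 CPM in HCC1954 and 18.6 to 21.3 CPM in OVCAR8. The epithelial keratins *KRT8* and *KRT18* were at 189 CPM or more in every library, at 1925 to 3800 CPM in HCC1954 and at 1128 to 2045 CPM in OVCAR8. Leukocyte markers were at no more than 1.62 CPM, while 2 of the 3 endothelial markers were measured in HCC1954 (*PECAM1* at 32.6 to 62.8 CPM and *CDH5* at 12.5 to 25.4 CPM, with *VWF* at no more than 3.43 CPM in any library). Some of these markers differed between the libraries of a line. In the order EV, *SIVA-WT* and *SIVA-D160N*, *ERBB2* was at 9223, 7697 and 5736 CPM in HCC1954 and at 12170, 8860 and 5964 CPM in SKOV3. In HCC1954 the mesenchymal marker *VIM* was at 95.6, 160.6 and 290.2 CPM, *PECAM1* at 62.8, 60.2 and 32.6 CPM and *CDH5* at 25.4, 15.7 and 12.5 CPM. Mitochondrial genes took 3.61% to 5.77% of the counts. This share was 4.81% in EV and 4.66% in *SIVA-D160N* of MDA-MB-231, 5.77% and 4.47% in HCC1954, 5.14% and 4.53% in OVCAR8, and 3.61% and 3.88% in SKOV3, and the part of these markers and shares in the results was not tested.

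Promoter sequences of the members are shown first, because the elements that are known to time the transcription of such genes can be read in them. RefSeq promoter windows (GRCh38.p14, 250 bases before to 50 bases after an annotated start) were matched by symbol for 41 of the 48 members, in 50 windows, and not for *FOXM1*, *AURKA*, *KNTC1*, *RACGAP1*, *TTK*, *BIRC5* and *TPX2*. The letters TTTGAA or TTCGAA, taken here as the core of the CHR, occurred on either strand in 37 of the 50 windows (74.0%), against 16.4% of all 35116 promoter windows. CCAAT occurred on either strand in 39 windows (78.0%), against 34.6% of all. Both stood together in 31 windows (62.0%), against 6.38% of all. TTCGAA is its own reverse complement and was counted once at a position. These are letter matches and not measured binding sites. The stretches below run from 120 bases before to 30 bases after the start, 5′ to 3′ on the strand of the gene, for 5 of the 6 members with the smallest p in *SIVA-D160N* against EV and for *CENPA*, the gene described in full for the kinetochore group. Capitals mark the CHR letters on either strand and the CCAAT box, which reads ATTGG where it lies on the opposite strand.
ANLN: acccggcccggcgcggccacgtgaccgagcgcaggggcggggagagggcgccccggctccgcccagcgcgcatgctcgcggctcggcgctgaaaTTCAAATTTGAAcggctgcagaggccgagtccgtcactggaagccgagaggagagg
HMMR: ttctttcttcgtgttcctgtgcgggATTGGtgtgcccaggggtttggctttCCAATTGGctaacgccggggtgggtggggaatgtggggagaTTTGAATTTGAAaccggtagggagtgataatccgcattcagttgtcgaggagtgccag
KIF20B: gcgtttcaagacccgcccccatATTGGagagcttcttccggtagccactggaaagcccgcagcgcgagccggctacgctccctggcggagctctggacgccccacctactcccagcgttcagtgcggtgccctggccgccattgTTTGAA
BUB1: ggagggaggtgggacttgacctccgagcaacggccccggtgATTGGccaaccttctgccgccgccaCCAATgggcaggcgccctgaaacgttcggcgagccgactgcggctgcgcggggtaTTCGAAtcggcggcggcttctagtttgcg
BUB1B: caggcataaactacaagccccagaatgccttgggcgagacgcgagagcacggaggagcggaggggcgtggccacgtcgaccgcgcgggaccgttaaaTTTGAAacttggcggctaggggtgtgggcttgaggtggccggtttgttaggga
CENPA: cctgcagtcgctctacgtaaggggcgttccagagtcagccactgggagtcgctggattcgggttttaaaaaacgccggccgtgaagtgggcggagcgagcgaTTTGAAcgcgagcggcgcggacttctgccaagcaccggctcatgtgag

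These stretches lie at chr7:36389742-36389891 (*ANLN*, plus strand), chr5:163460512-163460661 (*HMMR*, plus strand), chr10:89701470-89701619 (*KIF20B*, plus strand), chr2:110678034-110678183 (*BUB1*, minus strand), chr15:40160949-40161098 (*BUB1B*, plus strand) and chr2:26785936-26786085 (*CENPA*, plus strand) of GRCh38.p14. In the *ANLN* stretch 2 copies of the CHR letters stood side by side on opposite strands at positions -26 and -20 from the start, and its window held no CCAAT. *HMMR* had 2 copies in the same direction at -28 and -22, downstream of 5 CCAAT matches in its window, 2 of which overlap. *KIF20B* had its copies downstream of the start at 25 and 31, the second past the end of the stretch shown. *BUB1* had TTCGAA at 2 and *BUB1B* had TTTGAA at -23, the latter without a CCAAT in its window. *CENPA* also had TTTGAA, at -18, with 2 CCAAT matches upstream of the stretch. Among the 41 members, the 34 with CHR letters had a median log2 fold change of 0.24 in *SIVA-D160N* against EV (0.00 to 0.72), and the 7 without had a median of 0.26 (0.05 to 0.34). Only TTTGAA and TTCGAA were searched, so the 7 are without these letters, which does not show that they lack a CHR.

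**Figure D1:**
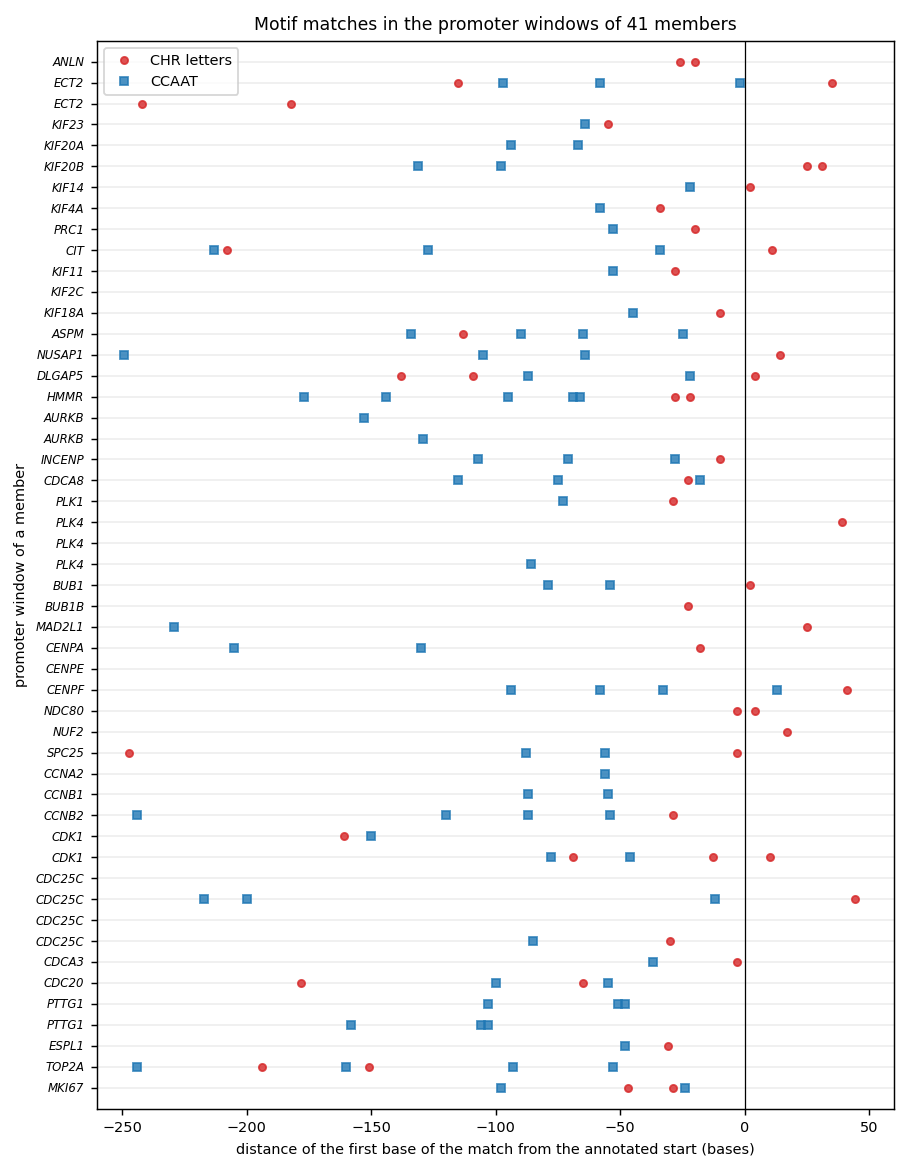
Each row is a promoter window of a member (50 windows of 41 members), and the x axis gives the distance in bases of the first base of a match from the annotated start; circles are CHR letters and squares are CCAAT on either strand. CHR letters occur in 37 windows and CCAAT in 39.

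The first comparison asked how *SIVA-D160N* transfectants differed from EV. All 48 members had a fitted level above EV, from a log2 fold change of 0.00 for *NDC80* to 0.72 for *ANLN*, with a median of 0.25 against -0.01 over all 17211 genes tested. Of all genes, 8311 had a fitted level above EV and 8900 below. None of the 48 passed an FDR of 0.05 by edgeR, where 0.00581% of all genes did, while DESeq2 called 4 members (*ANLN*, *BUB1*, *HMMR* and *KIF20B*), against 2.57% of the genes it gave an adjusted p, and limma-voom called 1 (*ANLN*), against 0.389% of all genes. At an unadjusted p under 0.05, 28 of the 48 members (58.3%) were higher, against 6.52% of all genes, and 0 were lower, against 7.68% of all genes. In 21 members the *SIVA-D160N* library was above the EV library in each of the 4 lines (43.8%, against 6.95% of all genes), and in 0 members was it below in each line (against 9.06%). Without the EV library of HCC1954, 21 members were higher at an unadjusted p under 0.05 (4.53% of all genes), the median was 0.25, and 47 members had a fitted level above EV, with *CIT* at -0.07. In the 3 lines other than HCC1954, 21 members were above EV in each, against 9.94% of all genes. The number higher at an unadjusted p under 0.05 was 14 when all 3 libraries of HCC1954 were left out and 17 when those of MDA-MB-231 were. In these fits 9.66% and 11.3% of all genes had such a p, in either direction. With cell line as block, the p-values rest on the spread that remains once line and condition levels are removed, over all 12 libraries.

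*ANLN* encodes anillin, the scaffold that ties actin, myosin and septins into the contractile ring, and lies at chr7:36389862-36453791. In MDA-MB-231 its level was 312 CPM in EV, 453 CPM with *SIVA-WT* and 512 CPM with *SIVA-D160N*. In the same order it was at 305, 414 and 668 CPM in HCC1954, at 353, 438 and 538 CPM in OVCAR8, and at 259, 261 and 349 CPM in SKOV3. So *SIVA-D160N* was highest, *SIVA-WT* next and EV lowest in each of the 4 lines, and the 4 *SIVA-D160N* libraries overlapped the 4 EV libraries only through SKOV3 (349 CPM against 353 CPM in EV of OVCAR8). The raw counts behind these values ran from 9795 to 23398. The fitted log2 fold change of *SIVA-D160N* against EV was 0.72 (SE 0.12, FDR = 0.128), which ranked 8 of 17211 genes by p. The log2 ratios within lines were 1.13 in HCC1954, 0.43 in SKOV3, 0.72 in MDA-MB-231 and 0.61 in OVCAR8, and without the EV library of HCC1954 the log2 fold change was 0.63. Over the 12 alternative settings the log2 fold change stayed between 0.58 and 0.82, while the FDR ran from 3.3e-05 to 1.00 and passed 0.05 in 4 of them. An exact two-sided sign-flip test over the 4 lines gave p = 0.125, the smallest value that 4 lines allow. Any gene that differed in the same direction in all 4 lines gives this value, so the test adds nothing to the ratios above.

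**Figure D2:**
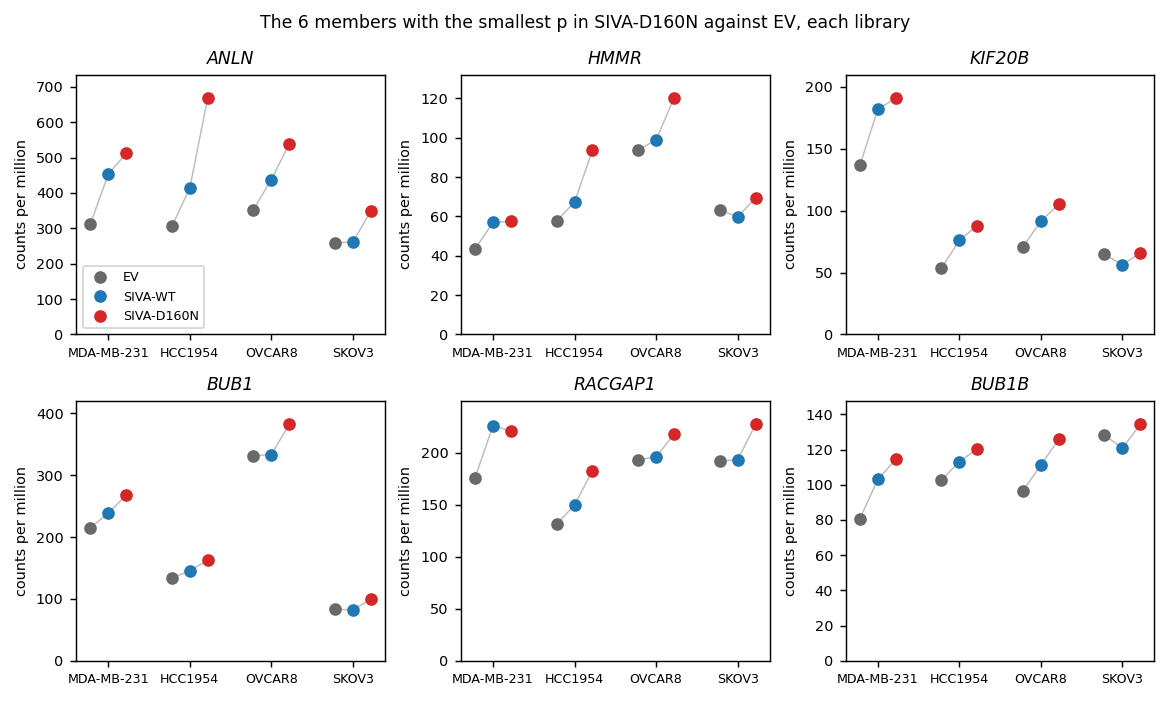
CPM (y axis, from 0) of the 6 members with the smallest p in *SIVA-D160N* against EV in each of the 12 libraries, with a point per library and a grey line joining the libraries of a cell line (x axis). For *ANLN* the order is EV, *SIVA-WT*, *SIVA-D160N* from low to high in all 4 lines, with the smallest ratio of *SIVA-D160N* to EV in SKOV3 (0.43 on the log2 scale).

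Of the 10 genes of cytokinesis and the central spindle, 8 were higher in *SIVA-D160N* than in EV at an unadjusted p under 0.05, with a median log2 fold change of 0.30 over the 10. *KIF20B*, a kinesin of the late midbody, was at 137, 182 and 191 CPM in EV, *SIVA-WT* and *SIVA-D160N* of MDA-MB-231, at 53.5, 76.0 and 88.0 CPM in HCC1954, at 70.7, 91.7 and 105 CPM in OVCAR8, and at 64.8, 56.3 and 66.0 CPM in SKOV3. The 3 libraries of SKOV3 thus lay close together, and the other lines carried the fitted log2 fold change of 0.44 (SE 0.12, FDR = 0.176). *RACGAP1*, the centralspindlin subunit that recruits *ECT2*, was at 176, 226 and 221 CPM in the same order in MDA-MB-231, at 131, 149.8 and 183 CPM in HCC1954, at 193, 196 and 218 CPM in OVCAR8, and at 192, 193 and 227 CPM in SKOV3. *SIVA-D160N* was above EV in each line and *SIVA-WT* was highest in MDA-MB-231 (log2 fold change 0.30, SE 0.09, FDR = 0.199). Its kinesin partner *KIF23* had a log2 fold change of 0.23 and *ECT2*, the exchange factor that activates RhoA at the midzone, one of 0.29, both above EV in all 4 lines. *KIF14*, *KIF20A* and *KIF4A*, kinesins of the midzone and midbody, had log2 fold changes of 0.34, 0.33 and 0.18. The 2 genes without such a p were *PRC1*, the microtubule bundler of the central spindle (0.18), and the kinase gene *CIT* (0.04, and -0.07 without the EV library of HCC1954), which was lower in *SIVA-D160N* than in EV in MDA-MB-231 and SKOV3. *KIF4A* has a near-identical copy, *KIF4B*, which held at most 4 counts in a library.

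Among the 8 spindle motors and assembly factors, *HMMR*, *DLGAP5*, *ASPM* and *TPX2* were higher at an unadjusted p under 0.05, and the median over the 8 was 0.24. *HMMR*, a microtubule-binding protein of the spindle poles, was at 43.6, 56.9 and 57.5 CPM in EV, *SIVA-WT* and *SIVA-D160N* of MDA-MB-231, at 57.7, 67.3 and 93.7 CPM in HCC1954, at 93.9, 98.9 and 120.1 CPM in OVCAR8, and at 63.4, 59.9 and 69.3 CPM in SKOV3. *SIVA-D160N* was highest in each line, although the lines themselves lay further apart (log2 fold change 0.40, SE 0.10, FDR = 0.175). *DLGAP5*, which stabilizes kinetochore fibers, had a log2 fold change of 0.33 and *ASPM*, a spindle pole protein, one of 0.37, with a ratio of 0.79 in OVCAR8 and -0.15 in SKOV3. *KIF11*, the plus-end motor that pushes the spindle poles apart, was at 179, 211 and 235 CPM in MDA-MB-231, at 114, 111 and 127 CPM in HCC1954, at 122, 129.7 and 147 CPM in OVCAR8, and at 108, 96.4 and 104 CPM in SKOV3. Its log2 fold change was 0.19 (SE 0.09, FDR = 0.361). The lowest in the group was *KIF2C*, a microtubule depolymerase, at 0.05.

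Of the 7 kinase and chromosomal passenger genes, 5 were higher at an unadjusted p under 0.05, and the median was 0.28. *AURKA*, the kinase of the spindle poles, was at 215, 278 and 291 CPM in EV, *SIVA-WT* and *SIVA-D160N* of MDA-MB-231, at 224, 209 and 291 CPM in HCC1954, at 198, 178 and 205 CPM in OVCAR8, and at 133, 147 and 174 CPM in SKOV3. The gap between EV and *SIVA-D160N* was smallest in OVCAR8, and the fitted log2 fold change was 0.31 (SE 0.10). *PLK4*, which controls centriole duplication, was at 0.29, *PLK1* at 0.25, *INCENP* at 0.31 and *CDCA8*, another passenger subunit, at 0.28. *AURKB*, the kinase of the same passenger complex, was at 89.9, 109 and 104 CPM in EV, *SIVA-WT* and *SIVA-D160N* of MDA-MB-231, at 80.5, 68.7 and 91.0 CPM in HCC1954, at 104, 81.0 and 84.2 CPM in OVCAR8, and at 55.0, 67.6 and 68.4 CPM in SKOV3. Its order of conditions differed from line to line, with EV highest in OVCAR8, and its log2 fold change of 0.10 (SE 0.12, FDR = 0.767) was within the error.

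The spindle checkpoint genes lay within a narrow range, with log2 fold changes of 0.29 for *BUB1B*, 0.26 for *BUB1*, 0.26 for *MAD2L1*, 0.25 for *TTK* and 0.16 for *KNTC1*, and only *KNTC1* missed an unadjusted p of 0.05. *BUB1*, the kinase that recruits checkpoint proteins to the kinetochore, was at 215, 239 and 268 CPM in EV, *SIVA-WT* and *SIVA-D160N* of MDA-MB-231, at 133, 146 and 163 CPM in HCC1954, at 332, 333 and 382 CPM in OVCAR8, and at 83.4, 82.2 and 99.6 CPM in SKOV3. The ratios of *SIVA-D160N* to EV were alike in the lines, from 0.20 to 0.31 on the log2 scale, which gave the smallest SE of the members named here (log2 fold change 0.26, SE 0.07, FDR = 0.185). *BUB1B*, which encodes the checkpoint protein BUBR1, was at 80.8, 103 and 114 CPM in MDA-MB-231, at 103, 113 and 121 CPM in HCC1954, at 96.6, 111 and 126 CPM in OVCAR8, and at 128, 121 and 134 CPM in SKOV3 (log2 fold change 0.29, SE 0.09, FDR = 0.211). *SIVA-D160N* was the highest of the 3 libraries in every line for both genes.

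The 6 centromere and kinetochore genes included 1, *CENPE*, a motor that moves chromosomes to the spindle equator, with an unadjusted p under 0.05 (log2 fold change 0.33). *CENPA*, the histone H3 variant that marks the centromere, was at 35.9, 38.5 and 31.2 CPM in EV, *SIVA-WT* and *SIVA-D160N* of MDA-MB-231, at 40.5, 38.9 and 39.3 CPM in HCC1954, at 36.5, 34.6 and 36.3 CPM in OVCAR8, and at 26.0, 31.4 and 34.0 CPM in SKOV3. Only SKOV3 had more *CENPA* mRNA in *SIVA-D160N* than in EV, and the fitted log2 fold change was 0.03 (SE 0.11, FDR = 0.914). *NDC80*, *NUF2* and *SPC25* encode subunits of 1 microtubule-binding complex, and their log2 fold changes were 0.00, 0.20 and 0.20.

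Of the 6 genes of mitotic entry, *CCNA2* (0.34), *CCNB1* (0.26) and *CDK1* (0.18) had an unadjusted p under 0.05. *CCNB1*, the cyclin that activates *CDK1*, was at 331, 454 and 477 CPM in EV, *SIVA-WT* and *SIVA-D160N* of MDA-MB-231, at 244, 238 and 281 CPM in HCC1954, at 359.7, 304 and 355 CPM in OVCAR8, and at 251, 289.7 and 321 CPM in SKOV3, so EV and *SIVA-D160N* did not separate in OVCAR8 (log2 fold change 0.26, SE 0.11, FDR = 0.321). *CCNB2*, the other B-type cyclin, was at 0.07 and *CDC25C*, the phosphatase that acts on CDK1, at 0.03. Of the 3 genes of anaphase onset, *CDC20*, the activator of the anaphase-promoting complex, had a log2 fold change of 0.37, with ratios of 0.73 in SKOV3 and -0.09 in OVCAR8. *PTTG1*, which encodes securin, the inhibitor of separase, was at 109.7, 139 and 143 CPM in MDA-MB-231, at 123, 102 and 111 CPM in HCC1954, at 197, 150.3 and 179.6 CPM in OVCAR8, and at 72.1, 70.6 and 77.5 CPM in SKOV3. It was above EV in MDA-MB-231 and SKOV3 and below EV in the other two, with a log2 fold change of 0.05 (SE 0.11, FDR = 0.890). The copies *PTTG2* and *PTTG3P* held at most 3 counts in a library.

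In the last group *FOXM1* and *MKI67* had an unadjusted p under 0.05 and *TOP2A*, a topoisomerase that untangles chromosomes, did not (log2 fold change 0.19). *MKI67*, which encodes the proliferation marker Ki-67, was at 291, 373 and 422 CPM in EV, *SIVA-WT* and *SIVA-D160N* of MDA-MB-231, at 446, 427 and 581 CPM in HCC1954, at 496, 557 and 587 CPM in OVCAR8, and at 835, 745 and 829 CPM in SKOV3. EV was the highest library in SKOV3, and the fitted log2 fold change was 0.29 (SE 0.10, FDR = 0.273). *FOXM1*, the transcription factor that activates many of these genes, had a log2 fold change of 0.31.

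**Figure D3:**
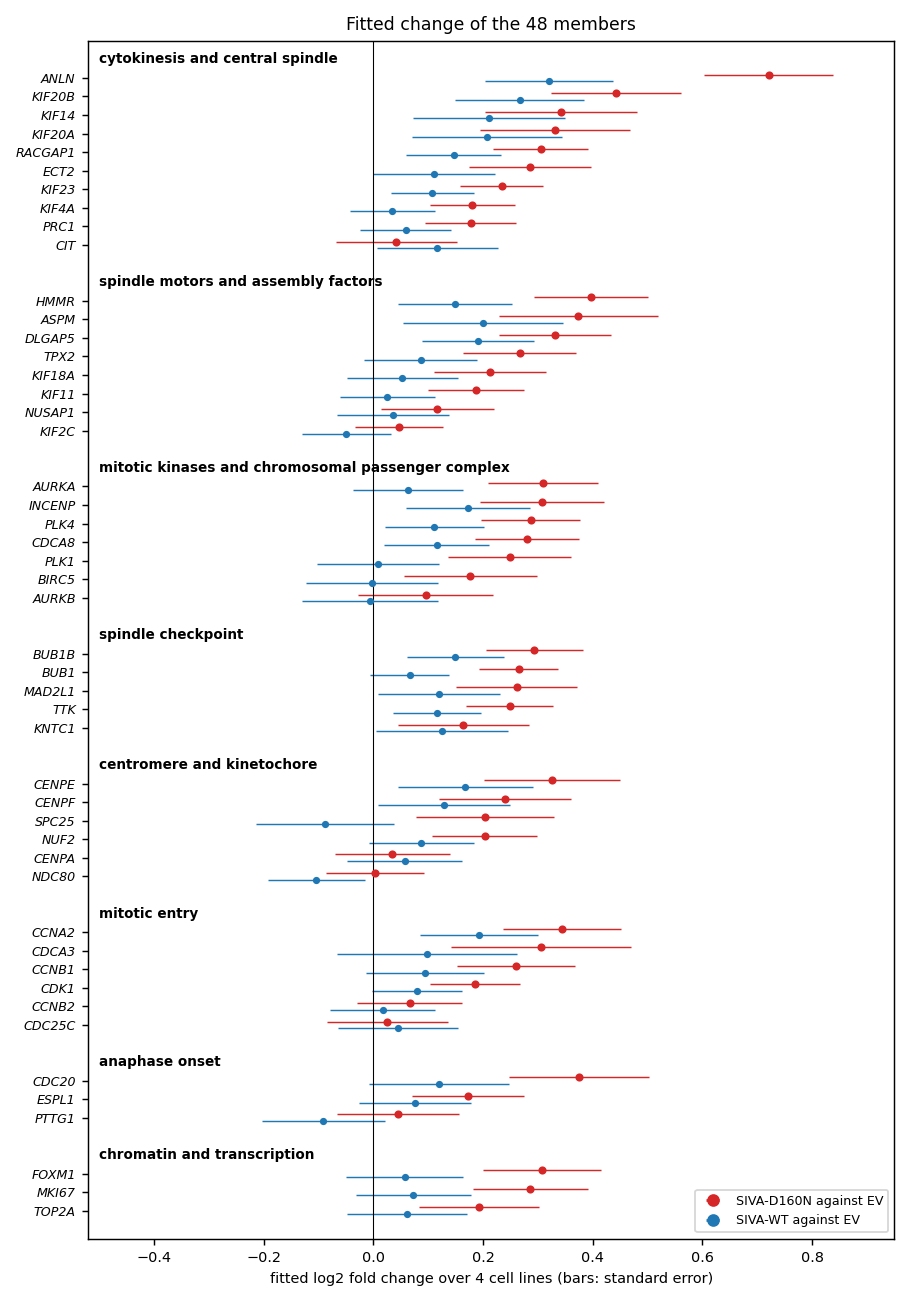
Fitted log2 fold change against EV over the 4 lines (x axis, bars are SE) of each member (y axis, grouped by role), in red for *SIVA-D160N* and in blue for *SIVA-WT*, which share the EV libraries. All 48 red points lie at or above 0, with *ANLN* at 0.72, and 42 of the blue points lie above 0.

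*SIVA-WT* was then compared with the same EV libraries, which asks how cells with the unmutated gene differed from the controls. The median log2 fold change of the members was 0.09 (all genes -0.01). Of all 17211 genes 8328 were higher, and of the members 42 were higher and 6 lower (*KIF2C*, *AURKB*, *BIRC5*, *NDC80*, *SPC25* and *PTTG1*). None passed an FDR of 0.05 by edgeR, DESeq2 or limma-voom (0.00%, 0.0116% and 0.00581% of all genes), and at an unadjusted p under 0.05 only *ANLN* and *KIF20B* were higher (1.47% of all genes) and 0 were lower (1.07% of all genes). Without the EV library of HCC1954 the number higher was 0 (1.33% of all genes). It was also 0 when MDA-MB-231 was left out, 1 without the line HCC1954 and 8 without SKOV3. In these fits 2.26%, 2.33% and 3.88% of all genes had such a p, in either direction. *ANLN* had a log2 fold change of 0.32 (SE 0.12, FDR = 1.00), with ratios of 0.01 in SKOV3, 0.31 in OVCAR8, 0.44 in HCC1954 and 0.54 in MDA-MB-231. *KIF20B* had a log2 fold change of 0.27 (SE 0.12) and *DLGAP5* one of 0.19 (SE 0.10), each at an FDR of 1.00. *DLGAP5* was at 202, 295 and 309 CPM in EV, *SIVA-WT* and *SIVA-D160N* of MDA-MB-231, at 102, 123 and 126 CPM in HCC1954, at 175, 162 and 193 CPM in OVCAR8, and at 99.6, 105 and 121 CPM in SKOV3. Only *ANLN*, *RACGAP1* and *KIF23* were above EV in all 4 lines, which is 3 of 48 members against 4.96% of all genes, and in the 3 lines other than HCC1954 it was 5 members against 8.49%. The lines did not move alike. In MDA-MB-231 all 48 members were above EV, with a median ratio of 0.31, while 25 members were above EV in HCC1954 (median 0.03), 22 in OVCAR8 (-0.02) and 21 in SKOV3 (-0.03). Of all genes, 46.7%, 51.4%, 49.6% and 51.2% were above EV in these lines, in this order.

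*SIVA-D160N* was also compared directly with *SIVA-WT*, which sets the mutant against the vector that carries the unmutated gene. The median log2 fold change was 0.15 (all genes 0.00). Of all 17211 genes 8498 were higher, and of the members 45 were higher and 3 lower (*CIT*, *CENPA* and *CDC25C*). None passed an FDR of 0.05 by edgeR, DESeq2 or limma-voom (0.00%, 0.106% and 0.00581% of the genes with an adjusted p). At an unadjusted p under 0.05, *ANLN*, *BUB1*, *AURKA*, *HMMR*, *FOXM1* and *SPC25* were higher, which is 6 of 48 (12.5%) against 2.58% of all genes, and 0 were lower against 4.30%. The number higher was 2 when HCC1954 or SKOV3 was left out and 10 when MDA-MB-231 was. In these fits 1.93%, 6.07% and 6.16% of all genes had such a p, in either direction. *ANLN* had a log2 fold change of 0.40 (SE 0.12), *BUB1* of 0.20 (SE 0.07) and *AURKA* of 0.25 (SE 0.10), each at an FDR of 0.719. MDA-MB-231 was again apart, with 25 members higher and a median ratio of 0.01, whereas 47 members were higher in HCC1954 (median 0.23), 44 in OVCAR8 (0.18) and 46 in SKOV3 (0.15). Of all genes, 47.8%, 47.9%, 49.5% and 51.2% were higher in these lines, in this order.

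Against EV, *SIVA-D160N* had 44 members higher in MDA-MB-231 (median ratio 0.33) and 43 in HCC1954 (0.30), compared with 34 in OVCAR8 (0.15) and 36 in SKOV3 (0.11), where 47.2%, 48.1%, 46.2% and 50.3% of all genes were higher. The share of all counts that the members took together was 0.660% to 0.801% in EV, and 0.720% to 0.971% for *SIVA-WT* and 0.830% to 0.997% for *SIVA-D160N*, so each *SIVA-D160N* library was above each EV library, the lowest of which was that of HCC1954 (0.756% to 0.801% in the other EV libraries). *SIVA-D160N* was the highest of the 3 libraries in all 4 lines for 11 members (*ANLN*, *KIF20A*, *KIF20B*, *KIF4A*, *DLGAP5*, *HMMR*, *AURKA*, *PLK4*, *BUB1*, *BUB1B* and *FOXM1*), against 3.67% of all genes, and for the same 11 in the 3 lines other than HCC1954, against 5.33%. *ANLN* was the only member with EV lowest, *SIVA-WT* between and *SIVA-D160N* highest in all 4 lines, against 0.657% of all genes (1.38% in the 3 lines other than HCC1954, where it was again the only member). The difference of *SIVA-D160N* against EV between ovarian and breast lines was tested as an interaction. Its median over the members was -0.18, with 42 members lower in the ovarian lines, as were 8409 of all 17211 genes. Yet 0 members passed an FDR of 0.05 by edgeR, DESeq2 or limma-voom (0.00581%, 0.0772% and 0.00% of the genes with an adjusted p) and 0 had an unadjusted p under 0.05 (5.06% of all genes). Without the EV library of HCC1954, the median was -0.26, 4 members (*KIF20A*, *NUSAP1*, *SPC25* and *CDCA3*) had an unadjusted p under 0.05 (7.64% of all genes) and 0 passed the FDR, with *SIVA-D160N* and EV then paired in 1 breast line only. With all 12 libraries, the smallest p-values were those of *CDCA3*, a cell cycle gene named for its association with cell division (difference -0.59, SE 0.31), and of *ANLN* (-0.41, SE 0.22), each at an FDR of 1.00. *CDCA3* was at 52.2 CPM in EV and 103 CPM in *SIVA-D160N* of MDA-MB-231, at 70.9 and 85.4 CPM in HCC1954, at 89.1 and 79.8 CPM in OVCAR8, and at 31.4 and 36.0 CPM in SKOV3.

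**Figure D4:**
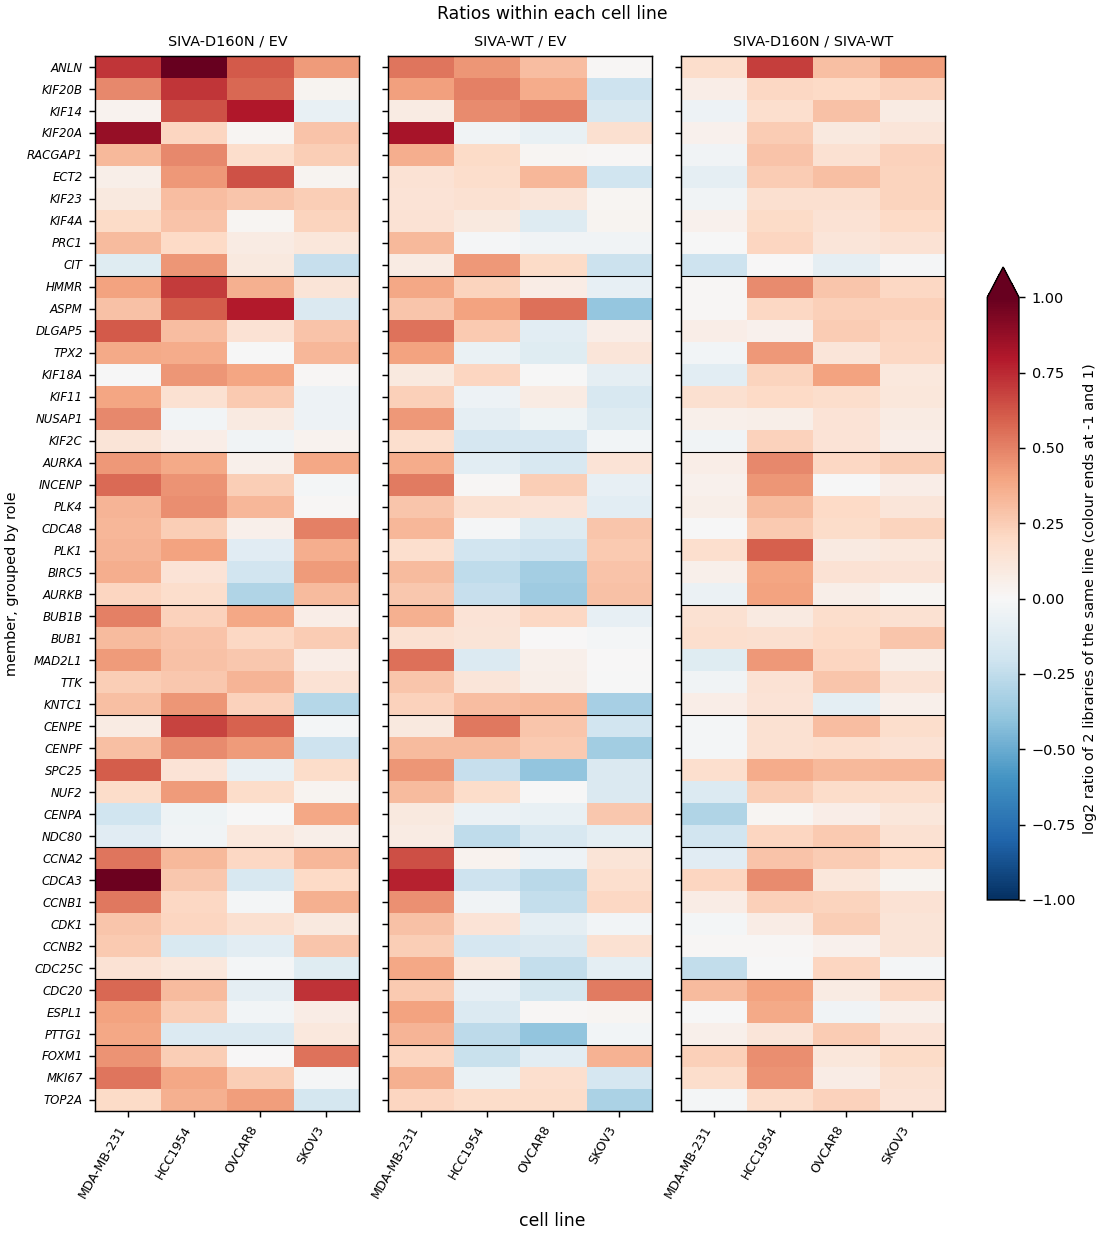
Log2 ratio of CPM between 2 libraries of the same line (color, red is higher in the first named) for each member (rows, grouped by role) and cell line (columns), for *SIVA-D160N* to EV, *SIVA-WT* to EV and *SIVA-D160N* to *SIVA-WT*. All 48 members are above 0 for *SIVA-WT* to EV in MDA-MB-231, and 47 for *SIVA-D160N* to *SIVA-WT* in HCC1954.

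The members varied together. After the line and condition means were removed, the median correlation of log2 CPM over the 1128 pairs of members was 0.42, and 77.0% of the pairs were positive. For every ninth gene tested the median was 0.00. The 12 libraries share 4 lines and these correlations are a description. The highest median correlations with the other members were those of *KIF2C* (0.62), *PRC1* (0.61) and *CCNA2* (0.60). *CENPA* (-0.01), *CDC20* (0.03) and *KIF14* (0.03) had the lowest, so genes of 1 role could lie at either end.

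Levels per kb were taken over all annotated exons of a gene, which an mRNA need not all hold, so genes are compared only roughly. They ran from 4.40 CPM per kb for *CIT* to 164 CPM per kb for *CDC20*, with a median of 29.5, and *ANLN* stood at 67.5. *CIT* had 28.6 kb of annotated exon, the most of the members, and *CDC25C* came next to it at 7.55 CPM per kb. The lowest count of any member in a library was 739, for *CDC25C*.

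Between the lines the members differed by more than between the conditions. For 39 of the 48 the range of the line means was larger than the range within any line, although the median log2 range of 0.87 was smaller than that over all genes (1.60). MDA-MB-231 had the highest mean for 21 members and SKOV3 the lowest for 21. These counts of 39, 21 and 21 were not taken over all genes, so they describe the members without setting them apart. Against the mean of the other 3 lines at an FDR under 0.05 (edgeR), MDA-MB-231 had 26 members higher and 8 lower, where 34.8% and 32.7% of all genes were called. HCC1954 had 8 higher and 23 lower (36.2% and 33.3% of all genes), OVCAR8 13 and 10 (36.1% and 32.0%), and SKOV3 10 and 21 (37.9% and 31.3%). Differences of at least 2-fold at this FDR were few. There were 4 in MDA-MB-231 (*KIF20B*, *CIT*, *DLGAP5* and *KNTC1*), against 33.1% of all genes, and 0 in HCC1954, against 36.7%. OVCAR8 had 3 (*BUB1*, *KNTC1* and *CENPF*), against 34.3%, and SKOV3 had 3 (*INCENP*, *BUB1* and *CDCA3*), against 34.6%. The 3 libraries of a line are the 3 conditions, so these tests compare these lines only.

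*BUB1* had the widest range, with a mean of 349 ± 28.6 CPM in OVCAR8, 240.4 ± 26.3 CPM in MDA-MB-231, 147 ± 14.7 CPM in HCC1954 and 88.4 ± 9.71 CPM in SKOV3 (SD, n = 3 each). No 2 lines overlapped, and the log2 fold change was 1.26 in OVCAR8 (FDR = 2.1e-08) and -1.39 in SKOV3 (FDR = 2.9e-08). *KNTC1*, a subunit of the RZZ complex that brings dynein to kinetochores, was at 181 ± 19.1 CPM in MDA-MB-231 and 147 ± 18.8 CPM in SKOV3, which overlapped, and at 76.1 ± 11.7 CPM in HCC1954 and 56.0 ± 6.38 CPM in OVCAR8 (SD, n = 3). Its log2 fold change was 1.08 in MDA-MB-231 and -1.18 in OVCAR8. *CIT*, the citron kinase of the midbody, was at 208 to 239.9 CPM in MDA-MB-231 and at 62.4 to 124 CPM elsewhere, with a log2 fold change of 1.29 in MDA-MB-231 and -0.77 in HCC1954. *KIF20B* was also highest in MDA-MB-231 (log2 fold change 1.20). *CENPF*, a large protein of the outer kinetochore, had a log2 fold change of -1.29 in OVCAR8, where it was at 116 to 157 CPM against 269 to 452 CPM in the other lines. *KIF20A*, a kinesin of the central spindle, was higher in HCC1954 (205 to 244 CPM, log2 fold change 0.96), where *TPX2*, which activates *AURKA* on the spindle, was lower (240.0 to 324 CPM, log2 fold change -0.81). SKOV3 had the most *INCENP*, the scaffold of the passenger complex (198 to 209 CPM, log2 fold change 1.15), and the least *CDCA3* (31.4 to 36.0 CPM, log2 fold change -1.18).

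**Figure D5:**
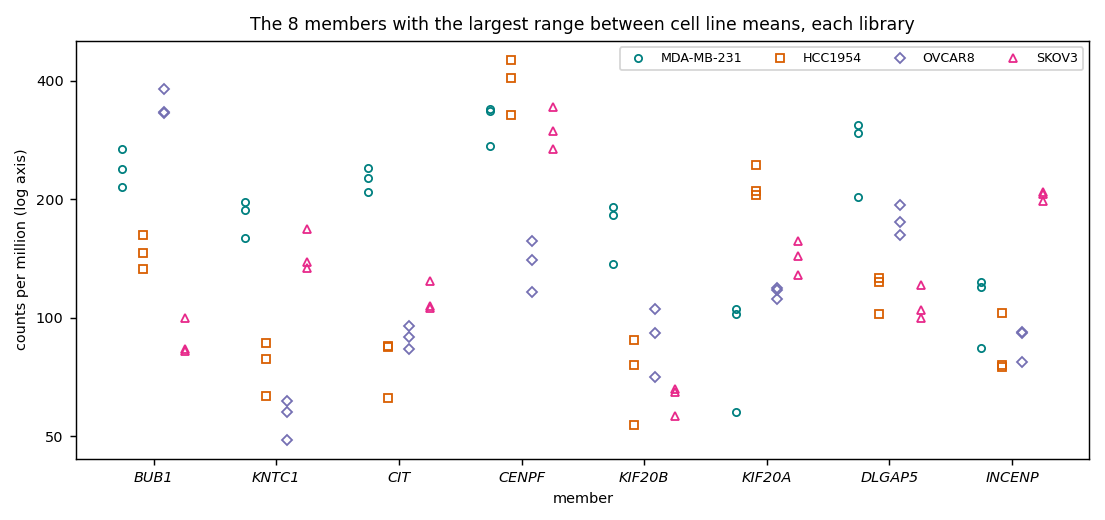
CPM on a log axis (y axis) of the 8 members with the largest range between line means (x axis), with a symbol per library and 3 libraries per line. For *BUB1* the 4 lines do not overlap, and for *INCENP* only SKOV3 stands apart.

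Other genes of the pathway were counted in *SIVA-D160N* against EV, where none of the listed genes had an FDR under 0.05 by edgeR, so that the counts of higher and lower genes here are at an unadjusted p under 0.05, at which 6.52% of all genes were higher and 7.68% lower. Of 53 other mitotic genes, 21 were higher and 0 lower, with a median log2 fold change of 0.20. The smallest p-values were those of *CENPI*, a centromere protein (0.54, SE 0.10, FDR = 0.128), *ZWILCH*, a partner of *KNTC1* in the RZZ complex (0.35, SE 0.08, FDR = 0.148), and *SGO2*, a protector of centromeric cohesion (0.43, SE 0.10, FDR = 0.154). *CENPI* was at 18.1, 25.7 and 32.2 CPM in EV, *SIVA-WT* and *SIVA-D160N* of MDA-MB-231, at 35.7, 46.9 and 56.7 CPM in HCC1954, at 32.1, 37.3 and 41.9 CPM in OVCAR8, and at 35.5, 37.3 and 44.0 CPM in SKOV3, the order that *ANLN* had. Of 17 subunits and partner enzymes of the anaphase-promoting complex, which marks securin and cyclin B for destruction, 1 was higher (*ANAPC1*, 0.26) and 1 lower (*ANAPC16*, -0.28), with *CDC23* at 0.16 and a median of 0.08, a share in each direction near that of all genes. Of 11 genes of the MuvB, B-MYB and DREAM complexes, 3 were higher and 1 lower (median 0.20). The smallest p-values were those of *E2F5*, a repressive E2F (-0.50), the E2F partner *TFDP1* (0.29) and the pocket protein gene *RBL1* (0.35). Of 7 brakes on mitotic entry, *CHEK1*, a checkpoint kinase, was higher (0.31) and *CDKN1A*, the p21 inhibitor of cyclin-dependent kinases, was lower (-0.67), with *CHEK2* at -0.20. *CDKN1A* was at 156 CPM in EV and 76.6 CPM in *SIVA-D160N* of MDA-MB-231 and at 13.9 and 4.56 CPM in SKOV3, but at 53.9 and 51.2 CPM in HCC1954 and at 16.2 and 16.5 CPM in OVCAR8. Among 28 DNA replication genes 5 were higher and 0 lower, all 28 had a fitted level above EV, and the median was 0.22. Within lines their median ratio was -0.12 in OVCAR8, 0.18 in SKOV3, 0.23 in HCC1954 and 0.52 in MDA-MB-231. The smallest p-values there were those of *ORC6* (0.31) and *MCM10* (0.48), which act at replication origins, and of *RRM2* (0.39), a subunit of the enzyme that makes deoxyribonucleotides. The part of the replication genes in the members' result was not tested.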

How the data were processed

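Per the study's methods, RNA was sequenced from stranded mRNA libraries, and per the labels' processing notes reads were aligned by the authors to GRCh38 with STAR 2.5.3a. The deposited table holds raw counts per gene, with 0 columns left without a library; the strand setting of the counting and the annotation release are not given in the sources used here. The 48 members and all gene lists were chosen with earlier results of these data known. Counts were tested with edgeR 4.0.16 (R 4.3.3; TMM, filterByExpr, quasi-likelihood test) in 1 fit over all 12 libraries with cell line as block and condition as term, and p-values were adjusted over all 17211 genes by Benjamini-Hochberg (FDR). The comparisons with EV share the EV libraries. The submitters' notes also name edgeR. Ratios within a line used log2 CPM with a prior count of 2. Exon lengths came from GENCODE and cover every annotated exon of a gene, with overlaps counted once. Libraries of the same line deviated together (correlations of 0.929 to 0.968, against -0.433 to -0.191 between lines), since they come from 1 cell line. Each gene was first centered on the mean of the 4 lines within a condition, which by itself pushes the correlations between lines below 0. No 2 libraries held identical values. The scripts were tested on simulated data.

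Values are given in full for 1 gene per role (*ANLN*, *KIF11*, *AURKB*, *BUB1*, *CENPA*, *CCNB1*, *PTTG1*, *MKI67*), for the members with the smallest p-values in each condition comparison (6 against EV for *SIVA-D160N*, 3 in each of the others) and in the interaction (2), for the 3 members that differed most in each line, and for the 3 genes with the smallest p in each other list. Members named beside their counts were added after their values were seen. Alternatives were other scaling, no filter on low counts, DESeq2 1.42.0, limma-voom (limma 3.58.1), no block, and leaving out lines, conditions or the EV library of HCC1954. Figures were drawn with matplotlib 3.10.9.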

Additional observations from a re-analysis of the deposited data

Results flagged for a closer look

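Dixon's ratio, the gap of 1 line to the nearest of the others divided by the range of the 4 values, was examined in 66 sets of 4 lines. It exceeded the 95% critical value for 4 values in 7 sets, where chance gives about 3.30. The sets share libraries and include members picked by their p-values, so the 3.30 is only a rough guide. In *SIVA-D160N* against EV, the log2 ratio of OVCAR8 was 0.0518 for *AURKA* (0.38 to 0.43 in the others) and -0.0015 for *TPX2* (0.33 to 0.38 in the others). In *SIVA-WT* against EV, SKOV3 was at -0.33 for *KNTC1* (0.23 to 0.33 in the others) and at -0.35 for *CENPF* (0.26 to 0.31 in the others), and MDA-MB-231 had a median over the members of 0.31 (-0.03 to 0.03 in the others). In *SIVA-D160N* against *SIVA-WT*, MDA-MB-231 was at -0.0171 for *CENPF* (0.15 to 0.17 in the others) and HCC1954 at 0.44 for *INCENP* (0.00 to 0.06 in the others). Each ratio rests on 2 libraries.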

How the results depend on the processing

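For *SIVA-D160N* against EV, the number of members at an FDR under 0.05 was 0 by edgeR's default fit, 2 with the low-count filter replaced by a minimum of 1 count (*ANLN*, *KIF20B*), 4 by DESeq2, 1 by limma-voom and 1 (*ANLN*) by edgeR with legacy = FALSE, a setting chosen after seeing the data. The planned setting legacy = TRUE is the default of this edgeR version and gave no second value. With no replicate block, 1 member was higher at an unadjusted p under 0.05 for *SIVA-D160N* against EV, 0 for *SIVA-WT* against EV and 0 for *SIVA-D160N* against *SIVA-WT* (28, 2 and 6 with the block). Of all genes, 0.139%, 0.0116% and 0.0291% then had such a p in either direction (14.2%, 2.54% and 6.88% with the block). With a line left out, the numbers of members ran from 14 (without HCC1954) to 25, with 17 without MDA-MB-231, from 0 (without MDA-MB-231) to 8 (without SKOV3), with 1 without HCC1954, and from 2 (without HCC1954 or SKOV3) to 10 (without MDA-MB-231). Of all genes, 9.66% to 14.9%, 2.26% to 3.88% and 1.93% to 6.33% had such a p in these fits, in either direction. Without the EV library of HCC1954 the numbers of members were 21, 0 and 6, and 4 for the interaction against 0 with it. That fit of the interaction and the orders in the 3 other lines were also chosen after seeing the data. *PTTG1* ran from a log2 fold change of -0.0595 (without MDA-MB-231) to 0.11 and *CENPA* from -0.0800 (without SKOV3) to 0.11. Between lines, with a condition left out, members higher ran from 16 to 29 in MDA-MB-231, from 4 to 9 in HCC1954 and from 6 to 9 in SKOV3, and members lower from 13 to 23 in HCC1954 and from 6 to 15 in OVCAR8. The lowest values came without the *SIVA-WT* libraries, except for members higher in HCC1954, without *SIVA-D160N*. Calls over all genes, in either direction, fell as well. In MDA-MB-231 they were 11618 of 17211 genes with all libraries and 8385 of 16160 without *SIVA-WT*. In the same order they were 11967 and 8920 in HCC1954, 11727 and 8634 in OVCAR8, and 11913 and 8912 in SKOV3. HCC1954 had 10583 of 16439 without *SIVA-D160N*. Fewer libraries enter the fits that leave some out, and otherwise the cause was not tested. Of the other values under alternatives, 326 of named members kept their direction and side of the threshold, and 178 counts and medians stayed within 1.5 times or within the spread. Over all genes, *SIVA-D160N* against EV gave 1 call at an FDR under 0.05 by the default fit, 552 with the minimum of 1 count, 46 with legacy = FALSE, 340 by DESeq2 and 67 by limma-voom. The lowest count of a member in a library was 739, and the part of depth in these results was not tested.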
